A study of Mus musculus with 6 samples.

Results

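The H-2 complex is the major histocompatibility complex of the mouse, a stretch of chromosome 17 packed with immune genes. The regions described here are all captured regions on chromosome 17 that overlap 34100000 to 37300000 of build mm9, apart from the 16 regions of the Tnf locus (35330000 to 35344000), which were left out. There were 893 such regions of 209687 in the series, and 778 of them (87.1%) had a value in all 6 samples and were compared. Of the other 115, 104 had a value in some samples and 11 in none, and these 115 were short of CpGs, with a median of 3 and at most 8. Membership was set by position alone, so no measured value entered the choice.

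The samples were colon epithelial cells of C57BL/6 mice aged 18 weeks, in 3 groups of 2, and no source used here gives doses or times of treatment. One group was the control. Another had received azoxymethane, a carcinogen acting on the colon, together with dextran sulfate sodium, which injures and inflames the colon lining (AOM/DSS). The last had both agents plus curcumin, a polyphenol of turmeric. The epithelium was scraped from the colon after its proximal segment and the tumors of the right portion had been taken out, so the values are not those of the removed tumors. The cells were washed to lower the share of blood cells, and the labelled cell type was not checked against marker genes, since no region could be tied to a gene. The labels do not say that the 2 samples of a group came from separate mice, so p-values reflect no more than the spread among these samples, which may be technical.

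The complex falls into parts with different work. Class I genes encode the heavy chains that show peptides from inside the cell to cytotoxic T cells, and natural killer cells read them as well. Class II genes encode the paired chains that show ingested peptides to helper T cells. They are made mainly by dendritic cells, macrophages and B cells, and intestinal epithelium makes them when interferon gamma is present. The class III stretch between them holds complement, heat shock and other genes that present no peptide. The mouse differs from human in that a pair of class I genes, H2-K1 and H2-K2, lies beyond the class II genes at the proximal end. DNA methylation at CpG-dense promoters goes with silent genes, while most CpG-dense promoters in normal tissue carry little of it.

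In the RefSeq gene order of build GRCm38.p6 the listed names begin with Tapbp, which helps load peptides onto class I molecules, and then H2-K2 and H2-K1. The class II part follows, from H2-Oa through H2-DMa, the proteasome and peptide transporter genes Psmb9, Tap1, Psmb8 and Tap2, and H2-Ab1 and H2-Aa to H2-Eb2. Of the listed names, Notch4, Ager and Tnxb come first in class III, and the complement genes C4b, Cfb and C2 come next. H2-D1 and the H2-Q, H2-T and H2-M genes follow in the distal class I part. Genes outside the list were not placed, so these names do not show what else the parts hold. The names listed for the complex matched that table for 18 of 18 class I genes, 9 of 9 class II genes, 5 of 5 antigen processing genes and 16 of 17 class III genes. It belongs to another build than the methylation files, so it gave only names and order, no region was tied to a gene, and no sequence of a region is printed.

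Regions were sorted by position into a proximal end with 47 regions (34099879 to 34194955), class II with 119 (34201723 to 34595149), class III with 273 (34674173 to 35327179) and class I with 454 (35346984 to 37220655). Values in all 6 samples were present in 40, 101, 239 and 398 of them. A region's level is the share of methylated calls among all calls over its CpGs, in percent, and differences are in percentage points. Whole samples held 24682973 to 30727568 calls, and the median region of the complex held 108 to 136 calls per sample. Calls on the same read are not independent, and limits given for 0 methylated calls cover counting error only.

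Methylation across the H-2 complex was low in control epithelium compared with the rest of its chromosome. The mean level over the 778 regions was 33.02% in control replicate 0 and 32.3% in control replicate 1, against 43.3% and 43.1% over the 7619 regions of the rest of chromosome 17. Complex minus rest was -10.8 to -10.1 points, negative in 6 of 6 samples. Of the 778 regions, 367 (47.2%) averaged under 10% over the 6 samples, compared with 34.61% of the rest of the chromosome and 36.4% of all regions. At 70% and above stood 180 regions (23.1%), compared with 33.8% and 31.4%.

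**Figure D1:**
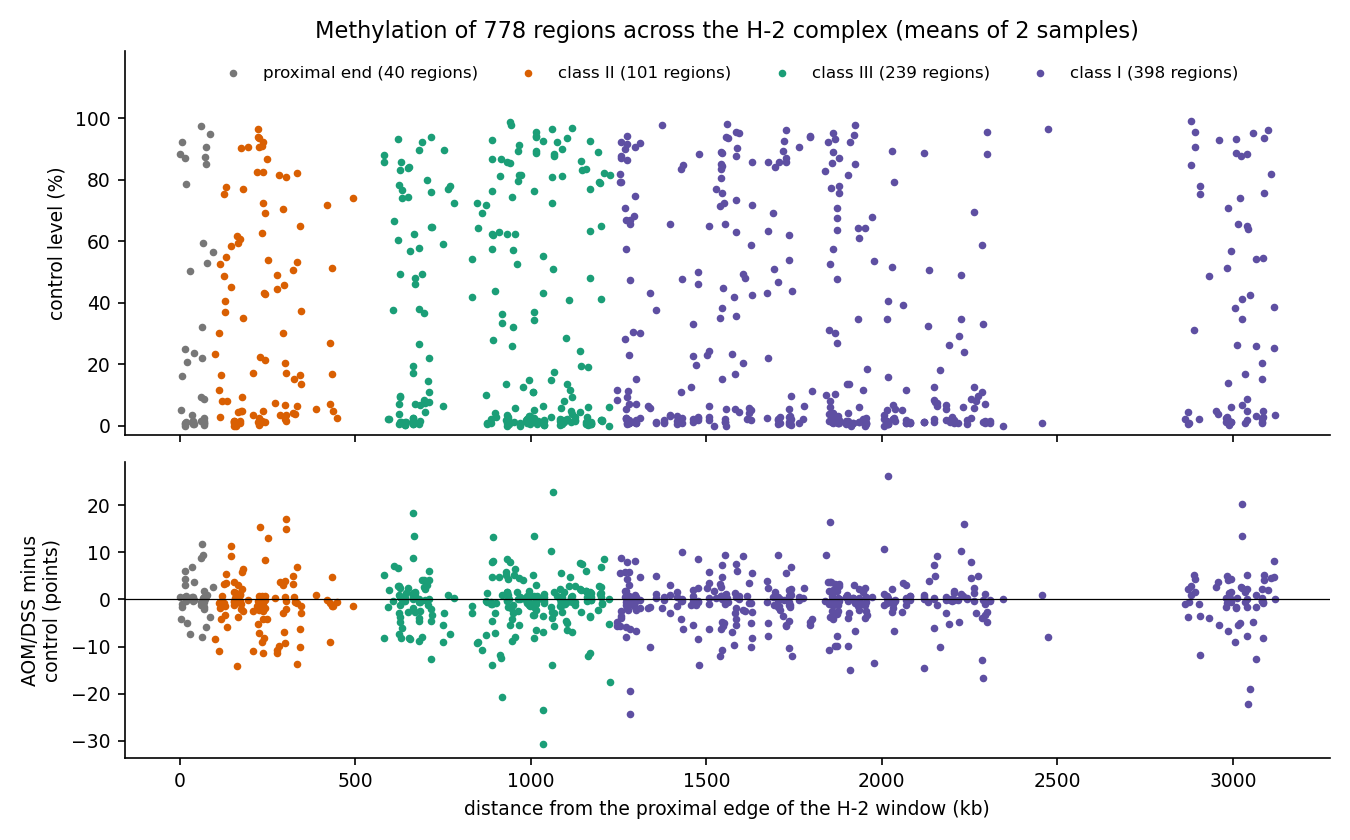
Upper panel: control level in percent (mean of 2 samples) of the 778 regions against distance from the proximal edge of the window in kb, coloured by part. Lower panel: AOM/DSS minus control in percentage points for the same regions. Low regions run along the whole complex, and 581 of 778 differences lie within 5 points of 0.

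Regions of the complex also held more CpGs, and they were longer. They held a median of 9 CpGs, against 7 for the rest of the chromosome, and 10.03% of them held 30 or more, against 4.46%. Their median length was 236 bases against 195, so these counts are not densities. At equal CpG number the complex was still lower in all 6 samples. Among regions of 3 to 5 CpGs its mean over the samples was 47.1% against 56.1% for the rest of the chromosome, among those of 6 to 9 CpGs 45.2% against 50.03%, and among those of 10 to 19 CpGs 25.5% against 30.6%. With at least 50 calls in each sample, a choice made after seeing the data, the gap at 3 to 5 CpGs was -12.4 points and at 6 to 9 CpGs -9.02 points. Regions are not replicates, so these gaps describe the chromosome and carry no test.

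The parts differed little in their mean. Over the 6 samples class III ran from 33.4 to 35.02%, class II from 32.8 to 34.54%, class I from 30.8 to 31.7% and the proximal end from 29.7 to 31.2%. Within each sample class III lay above class I by 2.07 to 3.35 points, and class II minus class III was -1.05 to -0.481 points. The proximal end lay below the other parts in 6 of 6 samples, and proximal end minus class I was -1.99 to -0.0492 points. The ranges of class II and class III over samples overlapped, so their order held within samples only.

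The parts came apart when regions of like CpG number were compared. Class II regions of 3 to 5 CpGs averaged 34.55 to 38.0% in the 6 samples, while those of class III averaged 48.0 to 51.1% and those of class I 48.0 to 50.6%. Class II was the lowest in 6 of 6 samples, over 32, 71 and 115 regions. Class III and class I had no common order over the samples there, at the minimum of 10 calls. At 10 to 19 CpGs class II was instead the highest of these parts. Class II stood at 37.4 to 39.9% over 25 regions, class III at 28.3 to 30.1% over 68, and class I at 17.7 to 18.5% over 100. The proximal end, with 12 such regions, stood at 36.7 to 37.9%, close to class II. At 20 to 29 CpGs the mean of class II was 4.52% over 7 regions, below class III at 8.79% and class I at 8.59%. Its median there was the highest, at 4.81% against 1.19 and 1.33%. With at least 50 calls, class II minus class I was -7.99 to -5.51 points at 3 to 5 CpGs and 16.4 to 19.3 points at 10 to 19 CpGs. The median region of 10 to 19 CpGs stood at 3.87% in class I, 8.11% in class III and 29.03% in class II. At 6 to 9 CpGs the order of class II and class I depended on the minimum of calls, with means of 43.5 and 47.6% at 10 calls and 49.8 and 42.6% at 50 calls.

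**Figure D2:**
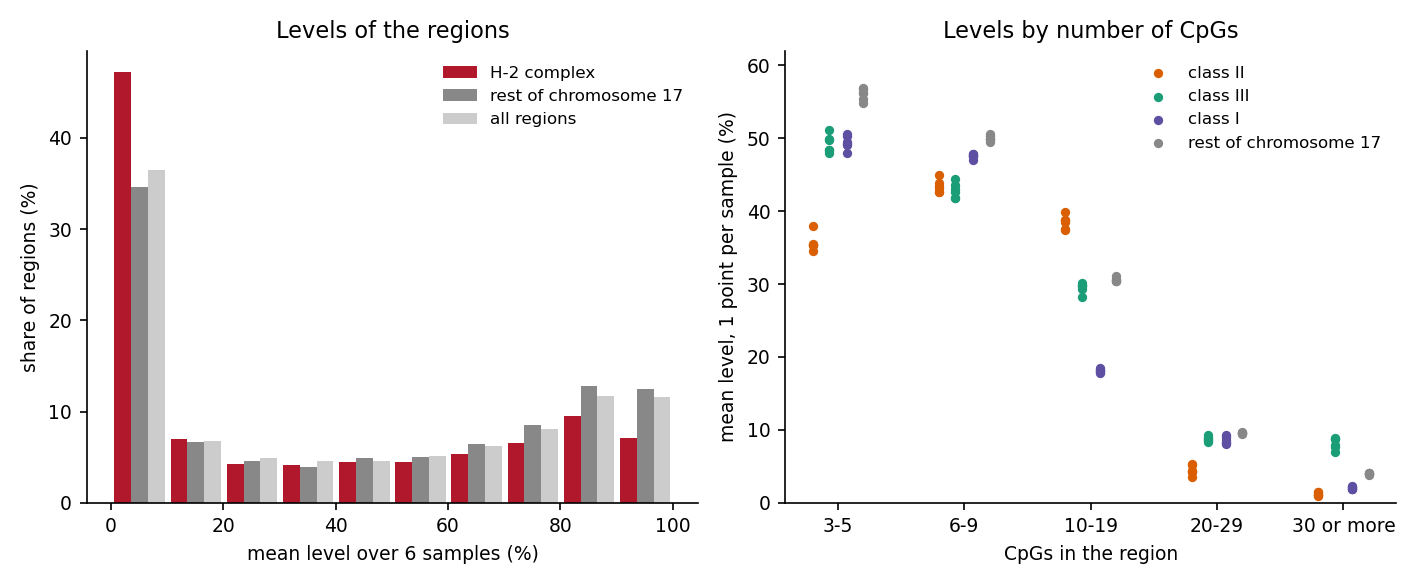
Left: share of regions in percent by mean level over 6 samples, in steps of 10 points, for the complex, the rest of chromosome 17 and all regions. Right: mean level in percent by number of CpGs, 1 point per sample, with class II lowest at 3 to 5 CpGs and highest at 10 to 19 CpGs.

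Regions of 30 or more CpGs were close to unmethylated in every sample in class I (1.91 to 2.30%, 45 regions) and class II (0.924 to 1.49%, 9 regions), but averaged 6.99 to 8.90% over the 19 such regions of class III. The median of those 19 was 1.19%, so that the class III mean was raised by a minority of them. In the proximal end the 2 regions richest in CpGs adjoin each other, chr17:34136515-34136919 with 46 CpGs and chr17:34136925-34137329 with 48. Their levels stayed between 0.427 and 1.82% in all samples at 605 to 1416 calls. In class II the richest ones, chr17:34255593-34255936 with 42 CpGs and chr17:34401759-34402092 with 40, stood at 0.752 to 4.40%. The highest of these values belonged to AOM/DSS replicate 0 in the former, where the other 5 samples stood at 0.752 to 1.83%. In class I the richest were chr17:37079915-37080357 with 48 CpGs and chr17:35400261-35400669 with 45, at 0.629 to 1.95%.

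Class III differed in this. Its 2 richest regions lie side by side, and both carried methylation. The region chr17:34808873-34809332, with 56 CpGs the most of any in the complex, stood at 8.35 and 13.2% in the control samples, 15.7 and 18.04% in AOM/DSS and 17.8 and 19.2% with curcumin, at 381 to 701 calls. All 4 treated samples lay above both controls, but AOM/DSS minus control (6.08 points, edgeR adjusted p = 0.773) and curcumin minus control (7.74 points, adjusted p = 1) did not pass. Its neighbour chr17:34808394-34808859, with 46 CpGs, stood at 7.51 and 7.72% in control, 7.43 and 8.13% in AOM/DSS and 5.46 and 5.48% with curcumin. The neighbours therefore did not share an order of the groups.

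Levels also varied along the chromosome. In windows of 100 kb with at least 20 regions, the lowest was 36200000 to 36300000 in class I, at 12.3 to 13.7% in the 6 samples, and the highest was 35600000 to 35700000, also in class I, at 48.0 to 50.1%. The windows on either side of the lowest one were also low, at 13.5 to 16.2% and 19.7 to 21.8%. A gap of 281221 bases without any captured region follows at 36573191. Of 473 neighbouring pairs closer than 1000 bases, 67 (14.2%) differed by more than 50 points, compared with 11.1% of such pairs over all regions.

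The first comparison asks how the H-2 complex differed after carcinogen and colitis. Its mean level hardly differed, and none of its regions was called. The control samples stood at 33.02 and 32.3% and the AOM/DSS samples at 31.8 and 32.4%. Their means were 32.7% ± 0.471 (SD, n = 2) and 32.1% ± 0.361 (SD, n = 2), with a difference of -0.587 points, and the groups overlapped (exact permutation test, two-sided p = 0.667; the smallest this design allows is 0.3333). Over all 179922 regions of the series the difference was -0.899 points without overlap. In such bulk samples, a change within cells and a change in the mix of cells cannot be told apart.

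Weighted by calls the difference was -0.109 points, and with at least 100 calls -0.0918 points. Between parts the differences were -0.757 points in class II, -0.715 in class III, -0.578 in class I and 0.519 in the proximal end. In class I both AOM/DSS samples, at 30.8 and 31.4%, lay below both controls, at 31.7% each (p = 0.3333, exact permutation test), and in the other parts the groups overlapped. The class I difference was 0.0854 points when regions were weighted by calls, so its sign depended on that weighting. Class II and class III rested on control replicate 0: without it their differences were 0.0780 and -0.0679 points.

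**Figure D3:**
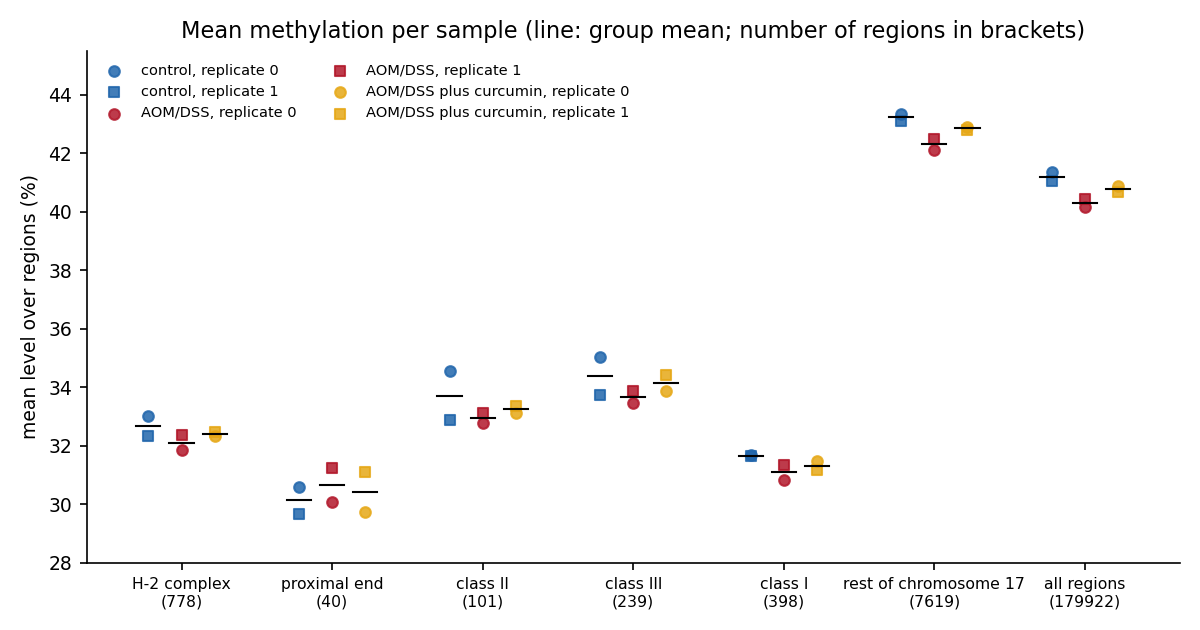
Mean level over regions in percent for each of 6 samples (circles replicate 0, squares replicate 1, lines group means), for the complex, its parts, the rest of chromosome 17 and all regions. The axis starts at 28%. Group differences inside the complex are mostly about as large as the gaps between replicates. In class I the control replicates nearly coincide, and both lie above all other samples.

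Methylated regions of the complex mostly had the sign seen over all regions. The 125 regions of the complex averaging 70 to 90% stood at 83.2 and 81.6% in control and at 80.4 and 80.3% in AOM/DSS. They differed by -2.05 points without overlap, against -2.57 points over all regions of that class. At 30 to 50% the 67 regions differed by -2.59 points and at 90% and above the 55 regions by -1.05 points, also without overlap (exact permutation test, p = 0.3333 for each, the smallest possible). The 77 regions at 50 to 70% stood at 60.7 and 59.4% in control and at 59.6 and 60.8% in AOM/DSS, with 0.154 points between the means, where all regions of that class differed by -2.65 points. Classes drawn by the curcumin samples, which enter neither group of this comparison, gave -0.243 points with overlap at 50 to 70%, where all regions gave -2.64, and -3.22, -1.72 and -1.34 points without overlap at 30 to 50%, 70 to 90% and 90% and above. Classes drawn by the control samples use a compared group. They gave -1.38 points with overlap at 30 to 50%, -1.40 with overlap at 50 to 70%, -2.06 at 70 to 90% and -2.38 at 90% and above. Level classes were set after earlier results of these data were known.

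**Figure D4:**
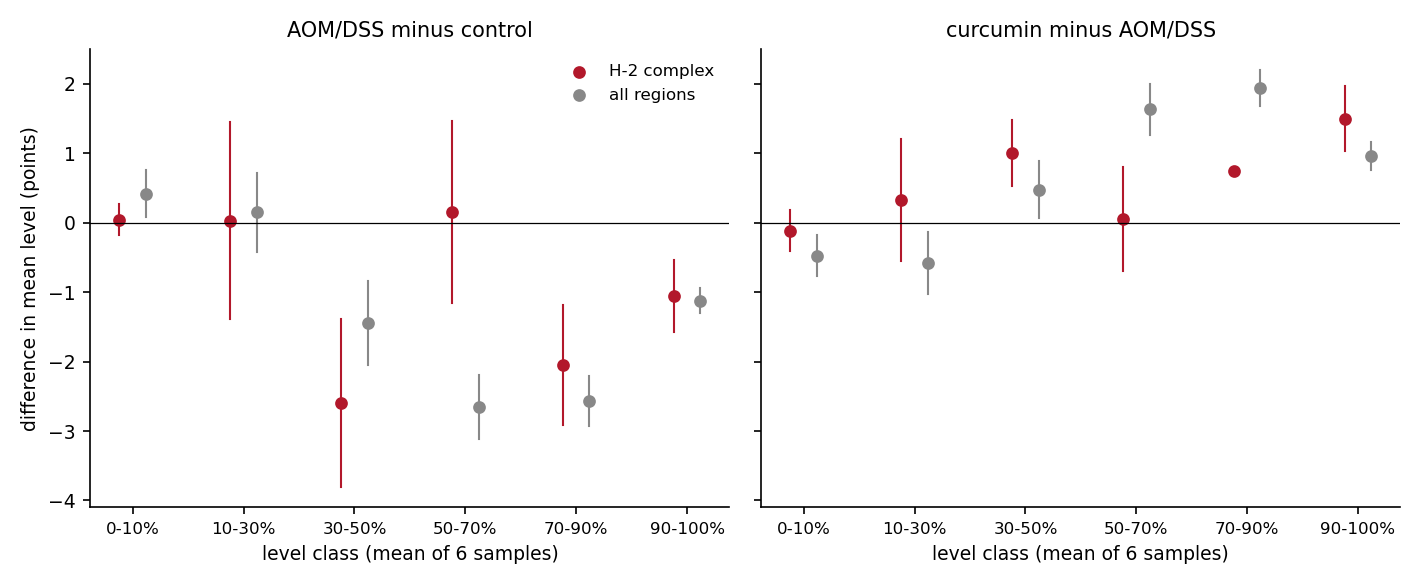
Difference in mean level in percentage points by level class, for AOM/DSS minus control (left) and curcumin minus AOM/DSS (right). Points are differences of group means, lines span the 4 differences between single samples, red is the complex and grey all regions. At 70 to 90% the complex lies at -2.05 and 0.738 points.

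For single regions, 0 of 778 were called in edgeR's quasi-likelihood test at an adjusted p under 0.05 and at least 10 points, against 7 (0.00389%) of all 179922 regions, and the lowest adjusted p in the complex was 0.474. The limma test also called 0. Before adjustment, 19 regions (2.44%) had p below 0.05 with 10 points or more, close to the background of 2.82%. Of these 19, 8 were higher in AOM/DSS and 11 lower, where the background was 0.723% higher and 2.1% lower. By limma the split was 6 higher and 14 lower, and with the replicate number added to the edgeR fit 8 and 9. It also moved when single samples were left out. No share over all regions is given for these alternatives, so their splits cannot be read against a background. In edgeR, without the minimum of points, there were 50 (6.43%, background 6.34%). Regions whose groups did not overlap numbered 128 higher (16.5%, background 14.8%) and 165 lower (21.2%, background 20.8%). The 19 numbered 5 in class II (4.95% of 101), 7 in class III (2.93% of 239), 7 in class I (1.76% of 398) and 0 of 40 in the proximal end. Fisher's test, run on calls added up within each group and so blind to replicate spread, called 10 regions. No share over all regions is given for that test, so this count cannot be read against a background. The regions named in what follows had the smallest unadjusted p among those whose groups did not overlap, and none of them passed.

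The named regions with the most negative differences lay in class III. The region chr17:35016674-35016802, with 6 CpGs and 79 to 152 calls, stood at 34.7 and 38.0% in control, 14.2 and 17.1% in AOM/DSS and 33.01 and 34.9% with curcumin. AOM/DSS minus control was -20.7 points (edgeR adjusted p = 0.592), and the curcumin samples overlapped the controls. Its replicates were close, with SDs of 2.30, 2.06 and 1.31.

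A stretch of 4 neighbouring regions from 35135080 to 35136401 lay lower in AOM/DSS in every sample than in control. It is a methylation slope that falls towards an unmethylated block. The first region, chr17:35135080-35135151 with 5 CpGs, stood at 92.7 and 92.5% in control and at 86.8 and 84.6% in AOM/DSS. The second, chr17:35135624-35135767 with 4 CpGs and 40 to 66 calls, stood at 60.3 and 50% in control, 23.1 and 25.8% in AOM/DSS and 34.9 and 29.6% with curcumin. This was the widest negative difference of the complex, -30.8 points (edgeR adjusted p = 0.592).

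The next region of the slope, chr17:35135888-35136215 with 10 CpGs and 125 to 229 calls, stood at 33.6 and 52.8% in control, 24.9 and 14.4% in AOM/DSS and 32.7 and 35.7% with curcumin. The difference to control was -23.5 points (edgeR adjusted p = 0.534), with control replicates far apart. The last of the 4, chr17:35136364-35136401 with 3 CpGs, stood at 5.19 and 7.32% in control, 1.46 and 3.95% in AOM/DSS and 8.57 and 16.4% with curcumin. Beyond it, chr17:35136887-35137094 with 13 CpGs and chr17:35137700-35137910 with 26 CpGs stayed at or below 2.07% in all samples.

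In class II the slope of an island ran the other way. The island region chr17:34401759-34402092 was at 0.961 to 2.37% in all samples. Next to it, chr17:34402202-34402552, with 15 CpGs and 138 to 203 calls, stood at 14.8 and 19.4% in control, 38.0 and 30.3% in AOM/DSS and 22.6 and 29.7% with curcumin, so that both AOM/DSS samples lay above the other 4. The difference to control was 17.1 points (edgeR adjusted p = 0.658). One region further, chr17:34402660-34402786, with 4 CpGs and 59 to 104 calls, stood at 77.9 and 83.9% in control, 98.6 and 93.2% in AOM/DSS and 79.5 and 89.9% with curcumin, 15.05 points above control (edgeR adjusted p = 0.603). Both AOM/DSS samples again were the highest of the 6.

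**Figure D5:**
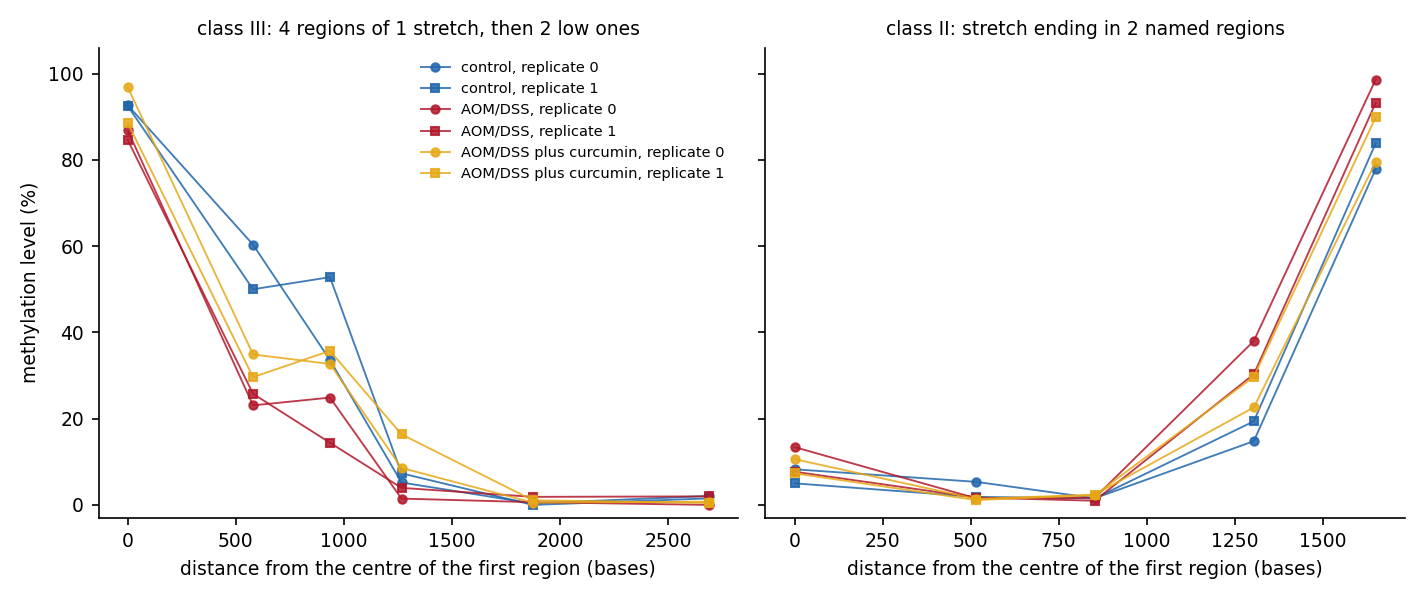
Methylation level in percent per sample against distance in bases from the centre of the first region, for the class III slope (left) and the class II island edge (right). In the class III slope both AOM/DSS samples lie lowest in the second region and in the one after it, and in the class II edge they lie highest in the last 2.

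The remaining regions with small unadjusted p had smaller differences. In class I, chr17:36052468-36052757 with 10 CpGs had 0 methylated calls among 316 and 202 in control, which allow up to 0.949 and 1.49%, and stood at 1.75 and 2.90% in AOM/DSS. The class I region chr17:36304341-36304728 with 37 CpGs stood at 1.21 and 1.25% in control and at 2.70 and 3.37% in AOM/DSS. The class III region chr17:35030080-35030247 with 7 CpGs stood at 1.16 and 2.41% in control and at 5.29 and 8.56% in AOM/DSS. These 3 were higher in AOM/DSS by 1.81 to 5.14 points (edgeR adjusted p = 0.474 to 0.685).

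Lower in AOM/DSS among them were chr17:35516448-35516822 in class I, a region of 32 CpGs, and chr17:35263810-35264072 in class III. The former stood at 2.14 and 1.11% in control and at 0 and 0.355% in AOM/DSS, where 0 of 512 calls allow up to 0.586%. The latter stood at 17.6 and 20.6% in control, 9.21 and 4.76% in AOM/DSS and 8.60 and 13.3% with curcumin (-12.1 points, edgeR adjusted p = 0.693). Runs of 3 or more neighbours within 1000 bases of each other, all without overlap in the same direction, numbered 7, and they held 22 members (2.83%, background 1.17%). The complex also has more close neighbours, with 473 pairs within 1000 bases among 778 regions against 88597 among 179922, so this share cannot be read against the background directly.

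The second comparison asks what curcumin added under AOM/DSS. The complex averaged 32.4% ± 0.0817 (SD, n = 2) with curcumin and 32.1% ± 0.361 without it, a difference of 0.299 points with overlap (exact permutation p = 0.667). The curcumin samples stood at 32.3 and 32.5%, and AOM/DSS replicate 1 at 32.4% lay between them. Class III was the part whose groups did not overlap, at 33.9 and 34.4% against 33.4 and 33.9% and with a difference of 0.492 points (p = 0.3333, exact permutation test), though the nearest samples were almost equal. At 70 to 90% the complex was 0.738 points higher with curcumin, against 1.94 points for all regions of that class, and at 90% and above it was 1.50 points higher, against 0.964 points, each without overlap. Classes drawn by the control samples, which enter neither group of this comparison, gave 0.621 points at 70 to 90%, against 1.98 over all regions. At 90% and above they gave 1.05 points against 1.17, so which was larger there depended on how classes were drawn. AOM/DSS samples are shared with the first comparison, so the comparisons are not independent of each other.

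No region of the complex was called between curcumin and AOM/DSS by edgeR or limma, and none of all regions was called by edgeR (0.0%). The lowest adjusted p in the complex was 0.891. Before adjustment, 12 regions (1.54%, background 2.0%) had p below 0.05 with 10 points or more. Of these 6 were higher with curcumin (background 1.29%) and 6 lower (background 0.706%). By limma the split was 4 higher and 4 lower, and with the replicate number added to the edgeR fit 6 and 5. It moved towards more higher regions whichever of the compared samples was left out. No share over all regions is given for these alternatives, so their splits cannot be read against a background. In edgeR, without the minimum of points, there were 44 (5.66%, background 5.25%). Regions without overlap numbered 147 higher (18.9%, background 18.9%) and 119 lower (15.3%, background 16.0%), and 4 runs held 14 members (1.8%, background 0.994%). As in the first comparison, the share in runs cannot be read against the background directly, since the complex has more close neighbours. Fisher's test on summed calls called 5, without a share over all regions. By part the 12 regions at unadjusted p were 2 in the proximal end (5% of 40) and 3 in class II (2.97% of 101). Class III held 4 (1.67% of 239) and class I 3 (0.754% of 398).

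Higher with curcumin were the class III region from 35016674 described above, by 18.3 points (edgeR adjusted p = 0.905), and the last region of the class III slope, by 9.76 points. All 4 regions of that slope lay higher with curcumin than in AOM/DSS without overlap, by 6.99 to 14.6 points, and none was called. In class II, chr17:34326358-34326565 with 10 CpGs stood at 95.9 and 96.3% with curcumin, 90.9 and 76.2% in AOM/DSS and 88.6 and 92.9% in control. The curcumin samples were the highest of the 6, and the AOM/DSS replicates were far apart. In class III, chr17:34783156-34783519 with 18 CpGs and 221 to 376 calls stood at 90.9 and 94.4% with curcumin, 84.2 and 85.8% in AOM/DSS and 87.2 and 91.9% in control. In the proximal end, chr17:34169355-34169656 with 15 CpGs stood at 0.581 and 0.755% in AOM/DSS and reached 5.09 and 2.29% with curcumin. Their adjusted p in edgeR was 0.928 for each of the last 3.

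Lower with curcumin was the proximal region chr17:34163633-34163734, with 3 CpGs and only 31 to 54 calls, at 13.7 and 12.8% with curcumin, 29.03 and 38.8% in AOM/DSS and 20.4 and 23.7% in control. The difference to AOM/DSS was -20.6 points (edgeR adjusted p = 0.928). The class III regions chr17:35034401-35034524 and chr17:35030080-35030247 lie near each other and both had AOM/DSS highest. The former, with 4 CpGs, stood at 0.840 and 0% with curcumin, 4.65 and 9.88% in AOM/DSS and 3.48 and 2.22% in control, where 0 of 102 calls allow up to 2.94%. The latter stood at 0.833 and 1.79% with curcumin, below both AOM/DSS samples and near the controls.

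The other 2 named regions lower with curcumin were the class II edge region from 34402660, with -11.2 points, and the class I region chr17:36046769-36047066 with 25 CpGs. The class I region had 0 methylated calls among 228 and 234 with curcumin, which allow up to 1.32 and 1.28%, and stood at 0.974 and 1.49% in AOM/DSS. AOM/DSS replicate 1 lay above both limits and AOM/DSS replicate 0 below them. Their adjusted p in edgeR was 0.928 for both.

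A last comparison sets curcumin plus AOM/DSS against control. The complex differed by -0.288 points (32.4% against 32.7%; exact permutation p = 0.667). In class I both curcumin samples, at 31.5 and 31.2%, lay below both controls, with a difference of -0.342 points (p = 0.3333, exact permutation test). No region was called by edgeR or limma, where edgeR called 0 of all regions (0.0%). Fisher's test on summed calls called 1, again without a share over all regions. Before adjustment, 8 regions (1.03%, background 1.46%) had p below 0.05 with 10 points or more, 4 higher (background 0.562%) and 4 lower (background 0.899%), and without the minimum of points there were 35 (4.50%, background 4.17%). Regions without overlap numbered 135 higher (17.4%, background 14.3%) and 144 lower (18.5%, background 17.7%), and 6 runs held 18 members (2.31%, background 0.708%). Since the complex has more close neighbours, the share in runs cannot be read against that background directly. The count of 8 was larger when either control sample was left out. No share over all regions is given for those fits, so this rise cannot be read against a background.

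The widest difference of the complex in any comparison belonged here to a thinly covered region of class I. The region chr17:36118229-36118269, with 3 CpGs and 21 to 37 calls, stood at 37.5 and 43.5% in control, 52.4 and 81.1% in AOM/DSS and 73.1 and 77.8% with curcumin. Curcumin minus control was 34.9 points (edgeR adjusted p = 1). It was singled out after its values were seen. All 4 treated samples lay above both controls, and the AOM/DSS replicates were far apart.

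Among the regions named by p, the class I region chr17:36257834-36257898 with 10 CpGs stood at 31.4 and 7.41% with curcumin, so its mean rests on replicate 0, against 17.7 and 13.5% in AOM/DSS and 6.08 and 6.80% in control. The class II region chr17:34324418-34324898 with 30 CpGs stood at 0.204 and 0.227% in control and at 1.01 to 1.23% in the 4 treated samples, at 406 to 494 calls. The class III region chr17:34741272-34741620 with 23 CpGs stood at 0 and 0.637% in control, 0 and 0.823% in AOM/DSS and 0.870 and 4.76% with curcumin. The class I region from 36052468 and the class III region of 56 CpGs, both given above, complete those that were higher.

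Lower with curcumin than in control was the class II region chr17:34236043-34236107, with 4 CpGs and 131 to 205 calls. It stood at 6.04 and 9.92% in control, 3.41 and 0.685% in AOM/DSS and 1.25 and 0.676% with curcumin, so that all 4 treated samples lay below both controls. Class I regions made up the rest. Those from 35953006 to 35953089 and from 35950538 to 35950869 lie near each other, and in both control replicate 1 stood highest, at 13.4 and 5.62%, while control replicate 0 stood at 2.64 and 1.69%. With curcumin the former was at 1.74 and 0.625% and the latter at 0% in both samples, where 86 and 101 calls allow up to 3.49 and 2.97%.

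The last 2 were chr17:36046769-36047066, described above, with 1.45 and 2.73% in control, and chr17:37140079-37140186 with 4 CpGs. The latter stood at 4.84 and 12.5% in control, 2.04 and 0% in AOM/DSS and 0% in both curcumin samples, but on 36 to 62 calls, so that 0 of 39 and 43 calls allow up to 7.69 and 6.98%. All of these regions had an adjusted p of 1 in edgeR, and the differences ran from -8.67 to 13.0 points.

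Differences of the complex from the rest of the chromosome were tested over samples. The gap between complex and rest was 0.334 points smaller in AOM/DSS than in control (p = 0.3333, exact permutation test) and shifted by -0.245 points with curcumin against AOM/DSS (p = 0.3333, exact permutation test), each the smallest p possible. For the parts, 6 gaps were tested in each of 3 comparisons, where no exact permutation p could fall below 0.3333 and the lowest after Benjamini-Hochberg adjustment was 1. The proximal end against class II shifted most, by 1.28 points between AOM/DSS and control. These data thus do not show that any part of the complex responded differently from another.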

How the data were processed

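Bisulfite sequencing, which reads unmethylated cytosines as thymines, was run on DNA captured, per the labels, with a mouse Methyl-Seq kit (Agilent SureSelectXT). The deposited files hold counts per region: CpGs, methylation calls and methylated calls, with no value on fewer than 20 calls. The submitters' processing notes name build mm9, R 3.4.0, Bismark 0.15.0 and ChIPseeker 1.10.3. No source used here says how regions were drawn, whether duplicates were taken out, or whether starts count from 0 or 1.

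A region was kept with 10 or more calls in every sample. The edgeR 4.0.16 quasi-likelihood test (R 4.3.3) was fitted to methylated and unmethylated counts of all 179922 such regions, with a coefficient per sample for coverage and per group for methylation, all samples sharing the spread, and p-values adjusted by Benjamini-Hochberg over all of them. Tested on simulated data with known changes, it missed most of the changed regions, so a region without a call is not shown to be unchanged. Part means were compared by exact permutation tests in Python 3.11.15 with scipy 1.17.1. Named were, per comparison and direction, the 5 regions with the smallest unadjusted p among those without overlap, since none was called, runs of 3 or more within 1000 bases, and the 2 regions richest in CpGs of each part. Alternatives were limma 3.58.1, Fisher's exact test, other minimums of calls and points, fits to 4 samples, a replicate block, other means and edges, and leaving out samples. Members, lists and tests were chosen with earlier results of these data known. Limits for 0 methylated calls assume 3 calls and cover counting error only.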

Additional observations from a re-analysis of the deposited data

How the results depend on the processing

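No region of the complex was called under any alternative but Fisher's test on calls added up within each group, blind to replicate spread, which called 10, 5 and 1 regions in AOM/DSS minus control, curcumin minus AOM/DSS and curcumin minus control. Leaving out each sample in turn gave 0 calls throughout, with lone samples assumed to vary like the other groups. Shares over all regions are given above for the counts with no minimum difference, and for no other alternative. In the same order of comparisons, regions with p below 0.05 before adjustment and 10 points or more (19, 12 and 8) numbered 46, 23 and 30 by Fisher's test and 20, 8 and 7 by limma. They numbered 12, 7 and 4 with at least 50 calls and 3, 2 and 2 with at least 100 calls. With at least 20 points they numbered 6, 2 and 2, and with no minimum difference 50, 44 and 35. Without single samples they ran from 16 to 27, 12 to 14 and 6 to 18.

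Differences of means were small and moved with the way of averaging, and the cause was not tested. With each sample's median level over regions, AOM/DSS minus control was 1.15 points in the complex, 3.26 in the proximal end, 0.999 in class II, 0.0768 in class III and 1.41 in class I. Curcumin minus AOM/DSS was then -0.700 in the complex, 0.563 in class II, 1.37 in class III and -1.84 in class I, and curcumin minus control 0.450, 3.91 (proximal end), 1.56 (class II) and 1.45 (class III). Such differences between medians are not the difference of the typical region. The median of the single-region differences for AOM/DSS minus control was -0.196 points in the complex and 0.232 in the proximal end. It was -0.549 in class II, -0.157 in class III and -0.130 in class I. In the complex it was 0.00508 for curcumin minus AOM/DSS and -0.0880 for curcumin minus control. With pooled calls, AOM/DSS minus control was -0.109 in the complex and 0.0854 in class I, curcumin minus AOM/DSS was 0.924 in the proximal end, 0.651 in class II and -0.302 in class I, and curcumin minus control was 0.474 in class II. With at least 100 calls, AOM/DSS minus control was -0.0918 in the complex, 0.369 in class II and -0.159 in class I, and curcumin minus AOM/DSS was -0.0525, -0.241 and -0.147. With at least 50 calls the latter was -0.215 in class II. That minimum, added after seeing the data, also turned class II minus class I at 6 to 9 CpGs to 7.20 points. Class III minus class I at 3 to 5 CpGs, which had no common sign over samples at 10 calls (-2.22 to 0.776 points), was then 8.02 points.

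Leaving out single samples, AOM/DSS minus control ran from -0.920 to -0.254 points in the complex, -0.0583 to 1.097 in the proximal end, -1.59 to 0.0780 in class II, -1.36 to -0.0679 in class III and -0.846 to -0.310 in class I. Curcumin minus AOM/DSS ran from 0.0439 to 0.554, -0.909 to 0.469, 0.123 to 0.468, 0.218 to 0.766 and -0.0315 to 0.504, in the same order. Curcumin minus control ran from -0.621 to 0.0453, -0.390 to 0.988, -1.30 to 0.373, -0.870 to 0.424 and -0.496 to -0.188.

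Same-numbered samples did not deviate together (correlations across regions of 0.0548, 0.0121 and 0.00754), so the numbers were not taken as pairs. With a replicate block, 17, 11 and 8 regions had p below 0.05 before adjustment with 10 points or more, and 0 were called. Values of few CpGs rest on few calls.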
